A study of Homo sapiens with 105 samples.

Results

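The genes described here are 39 interferon-stimulated and cytosolic RNA sensing genes, followed in Caco-2 cells, a human colon adenocarcinoma line, after exposure to bacterial vesicles or to the RNA of these vesicles. They were taken from a fixed list of symbols, matched to the gene IDs of the count table, and make up 39 of its 63241 genes. Cells were incubated with membrane vesicles of *L. casei* (LcMV) or *E. faecalis* (EfMV) or with outer membrane vesicles of *P. mirabilis* (PmOMV), and other cells were transfected with RNA isolated from the same vesicle preparations, at 100 ng (LcRNA), 5 ng (EfRNA) or 2 ng (PmRNA). By the labels the number of vesicles also differed between the species, highest for LcMV and lowest for PmOMV, so the vesicle groups do not share a dose. PBS was the control of the incubations, and an siRNA without a target in human cells (ANC) transfected at 100, 5 or 2 ng (ANC100, ANC5, ANC2) was the control of the transfections. LPS of *P. mirabilis* was either added to the medium (LPSinc, 0.2 ng per µl by the labels) or transfected (LPStrans, 1 ng per µl by the labels), and the study's methods give both concentrations per ml, so the dose is uncertain. Cells were lysed after 10 and 24 h, and for LcMV, LcRNA, ANC100 and PBS also after 48 h. All groups share the same cell line and medium. LcRNA, EfRNA, PmRNA, the siRNA groups and LPStrans also received a lipid transfection reagent, which PBS, the vesicle groups and LPSinc did not, so a comparison of siRNA with PBS holds the reagent as well as the siRNA.

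Interferon-stimulated genes are switched on when a cell detects foreign nucleic acid. Double-stranded RNA or RNA with a triphosphate end in the cytosol is bound by the helicases RIG-I (*RIGI*) and MDA5 (*IFIH1*), which signal through the mitochondrial adaptor MAVS to the kinase TBK1 and to the transcription factors IRF3 and IRF7, and the interferons made in this way act back on the cell through the JAK kinases and a complex that holds STAT2 and IRF9. This complex binds the interferon-stimulated response element (ISRE) in the promoters of genes such as *IFIT1*, *ISG15*, *MX1* and *OAS1*, and the amount of their RNA is a common readout of RNA sensing after transfection.

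A total of 105 libraries were deposited, of which 39 come from lanes 2 to 4 of flow cell 1. These libraries stand apart from their labels: the most similar other libraries had the same time label for 12 of 39, compared with 66 of 66 outside these lanes, and they were set aside in the main reading. The remaining 66 libraries held 632659 to 8558755 counts (median 5563438) and fell into 28 groups, 20 of them with 2 libraries, 6 with 3, and LcRNA_10h and ANC100_10h with 4. The shallowest libraries were replicate 3 of PmRNA_10h (632659 counts) and replicate 3 of ANC5_10h (805396 counts). The labels do not say whether replicates came from separate cultures, so p-values measure only the spread between these libraries. All 7 epithelial markers (*EPCAM*, *CDH1*, *KRT8*, *KRT18*, *KRT20*, *VIL1*, *CDH17*) were detected, with a summed level of 3870 to 8610 counts per 1000000 counts (CPM). The summed level of 6 leukocyte markers was 5.71 to 17.2 CPM, with 2 counts of *PTPRC* in all 66 libraries, that of 4 fibroblast markers was 28.5 to 89.2 CPM and came from *COL1A1* and *PDGFRA*, with 2 counts of *COL1A2*, and that of 3 endothelial markers was 2.77 to 11.8 CPM.

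In Caco-2 cells the level differed widely between genes of the list. Of the 39 genes, 30 had enough counts to be tested, and 37 had at least 1 count in the 66 libraries. Per length of exon, the highest level was that of *BST2*, which tethers budding virus to the cell surface, at 41.6 CPM per kb. It was followed by the adaptor *MAVS* (20.2 CPM per kb), by *IRF3* (13.2) and by *TRIM25* (10.8), a ubiquitin ligase that activates RIG-I. The kinase PKR (*EIF2AK2*), which binds double-stranded RNA and stops translation, had 10.1 CPM per kb, *STAT2* had 5.99 and *ISG15*, a ubiquitin-like protein that is conjugated to other proteins, 5.48. The transcription factors *IRF1* and *IRF9* had 0.7 and 0.548 CPM per kb. The helicases were also low per length, with 1.32 CPM per kb for *IFIH1* and 0.157 for *RIGI*, as were *IFIT1*, whose protein binds viral RNA by its 5′ end (0.228), and *SAMD9*, a restriction factor of poxviruses (0.143). *TRIM25*, *DTX3L* and *EIF2AK2* were neighbours in this order, at 10.8, 10.6 and 10.1 CPM per kb. Over the 66 libraries *MAVS* had 238 ± 17.9 CPM, *EIF2AK2* 111 ± 9.65 CPM, *RIGI* 1.63 ± 0.58 CPM and *IFIT1* 1.05 ± 0.79 CPM (SD).

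**Figure D1:**
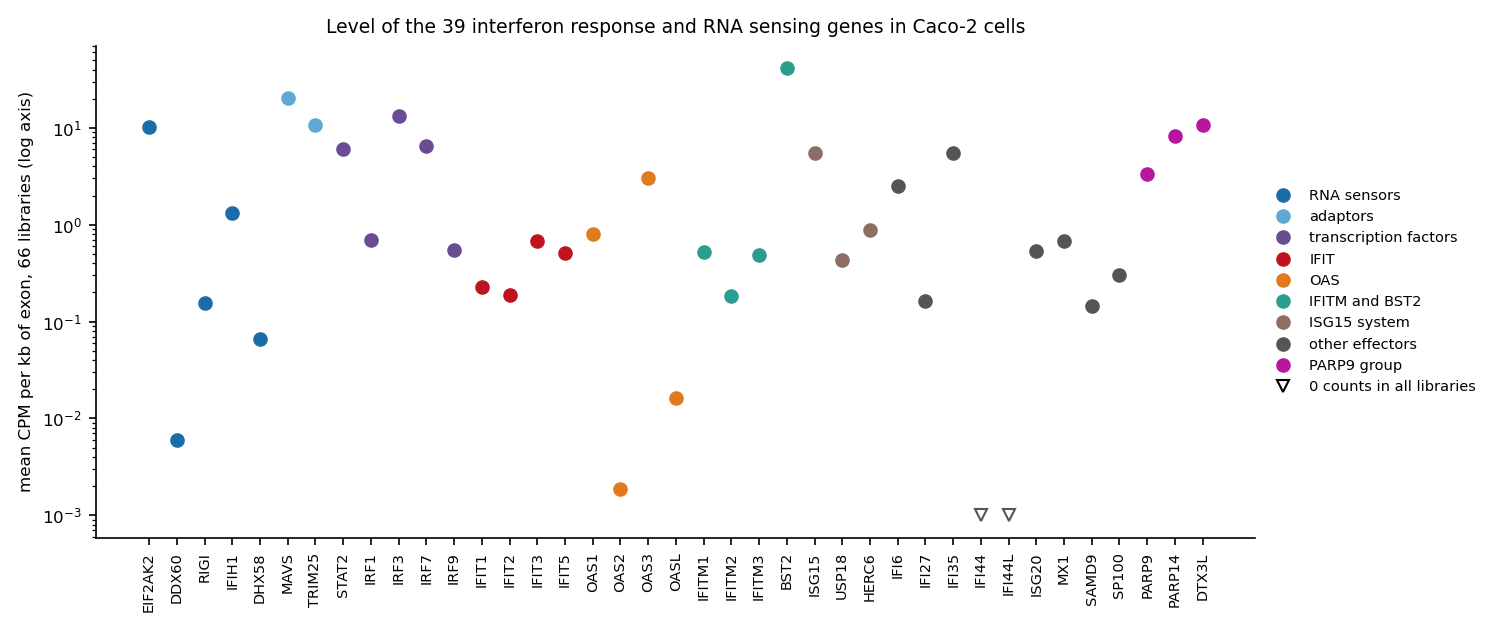
Mean level of each of the 39 genes over 66 libraries, in CPM per kb of exon on a log axis, ordered and coloured by role; open triangles mark the 2 genes with 0 counts, drawn at the foot of the axis. *BST2* is at the top with 41.6 CPM per kb, and *OAS2* is the lowest gene with a count, at 0.00188 CPM per kb.

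A further 9 genes were too low to test. *IFIT2* had 291 counts in 66 libraries, *IFI27* 238, *IFITM2* 114, *DHX58* (LGP2, a helicase that modulates RIG-I and MDA5) 81, *DDX60* 41, *OASL* 30 and *OAS2* 9. *IFI44* and *IFI44L*, which sit side by side on chromosome 1, had 0 counts in the 66 libraries, which allows a level of up to 0.00847 CPM (3 counts), counting error only. The interferon genes were low as well. Over the 66 libraries there were 0 counts of *IFNB1* and *IFNG*, 2 of *IFNA1*, 8 of *IFNL1*, 1 of *IFNL2* and 3 of *IFNL3*, and the highest were *IFNK* with 70 counts in 45 libraries and *IFNE* with 41 in 30. The receptors and kinases that receive interferon were present: *IFNAR1* had 36.7 CPM, *IFNAR2* 20.8 CPM, *IFNLR1* 15.1 CPM, *JAK1* 51.4 CPM and *TYK2* 68.2 CPM. *STING1*, the adaptor of DNA sensing, had 7 counts in all, although its partner *CGAS* had 37.7 CPM.

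Several of the 39 genes share exon sequence with a neighbour. In the GENCODE annotation exons of 18 of them overlap another gene, 8 on the same strand and 16 on the opposite one. The study's counting options name no strand setting, so whether strand was used in counting is not known. Without it, reads of genes on opposite strands could not be told apart where their exons overlap. Such pairs are *PARP9* (chr3:122527924-122564577) and *DTX3L* (chr3:122564338-122575203), which start head to head, *IRF3* and *BCL2L12*, *MX1* and *TMPRSS2*, and *IFIT3* and *LIPA*. *IFITM1* and *IFITM2* overlap a readthrough gene. The IFITM genes are also close paralogs, so their counts are uncertain.

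The promoters of the list were searched for the element through which interferon acts. Its core, GAAA followed after any 2 bases by a second GAAA and searched on both strands from 250 bases before to 50 bases after the start in RefSeq promoters (GRCh38.p14), was found in 1255 of 35116 promoters (3.57%), and in 21 of the 31 genes of the list that had a promoter in the table. The first share is per promoter and the second per gene, where any promoter of the gene sufficed, and 6 genes of the list had several. The list was chosen as interferon-stimulated and RNA sensing genes, so these figures are not a test of it. Overlapping matches were counted separately. *IFIT2*, *IFITM2*, *IRF7*, *OAS2*, *IRF3*, *OASL*, *DHX58* and *USP18* had no entry. The following 30 bases around the core are shown because they belong to genes whose levels differed with time of culture, 4 that were higher at later times, 2 that were lower, and *IFI44L*, which had no counts although its promoter holds the core. Each is written 5′ to 3′ on the strand of its gene, with the core in capitals.
IFIT1: ctagctttagTTTCACTTTCccctttcggt
IFITM1: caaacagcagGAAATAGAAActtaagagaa
IFITM3: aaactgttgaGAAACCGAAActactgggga
SAMD9: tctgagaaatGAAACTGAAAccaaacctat
OAS3: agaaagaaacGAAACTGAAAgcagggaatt
BST2: tcctttctggGAAACTGAAActgaaaacct
IFI44L: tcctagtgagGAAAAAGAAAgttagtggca
They lie at chr10:89392497-89392526 (*IFIT1*), chr11:313990-314019 (*IFITM1*), chr11:320876-320905 (*IFITM3*, minus strand), chr7:93118096-93118125 (*SAMD9*, minus strand), chr12:112938321-112938350 (*OAS3*), chr19:17405741-17405770 (*BST2*, minus strand) and chr1:78620274-78620303 (*IFI44L*). In *IFIT1* the core reads on the opposite strand. *STAT2*, *IRF1*, *IRF9*, *IFI35*, *OAS1*, *RIGI*, *MAVS*, *TRIM25*, *HERC6* and *SP100* had no match in this window, which says only that these letters are not in it.

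To examine whether vesicle RNA was sensed, cells transfected with it were compared with cells transfected with the same amount of siRNA. None of the 30 tested genes passed the test (edgeR quasi-likelihood, adjusted p under 0.05 over all 18775 genes tested) in LcRNA over ANC100 at 10, 24 or 48 h, in EfRNA over ANC5 or in PmRNA over ANC2 at 10 or 24 h, nor in the mean of the 3 vesicle RNAs over the mean of the 3 siRNA amounts at 10 or 24 h. The background was the same, as 0% of all genes tested passed in each of these comparisons, so the result is not particular to this list. At an unadjusted p under 0.05 there were 2, 2 and 1 of the 30 genes for LcRNA at 10, 24 and 48 h, 1 and 2 for EfRNA and 1 and 3 for PmRNA at 10 and 24 h, and 1 and 3 for the means, whereas 2.83 to 7.12% of all genes lay under this limit. DESeq2 called 0 of the 30 genes in each, but it gave an adjusted p to only 4 of the 30 in EfRNA_10h over ANC5_10h and in the means at 10 h. The median log2 fold change of the 30 genes was 0.04 at 10 h and -0.0086 at 24 h in the means, beside 0.00028 and -0.0047 for all genes.

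The intervals show which changes the data could hold. In the mean of the 3 vesicle RNAs over siRNA, the 95% interval of the log2 fold change lay within 1 of 0 for 26 of the 30 genes at 10 h and for 27 of 30 at 24 h, and within 0.5 of 0 for 18 and 21 of them. An increase of 1 log2 unit was outside the interval of 28 genes at 10 h, with *IFITM1* and *IFITM3* as the exceptions, and of 29 genes at 24 h, with *IFITM1* as the exception. The single pairs were less precise, and in PmRNA_10h over ANC2_10h the interval lay within 1 of 0 for 16 of the 30 genes.

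**Figure D2:**
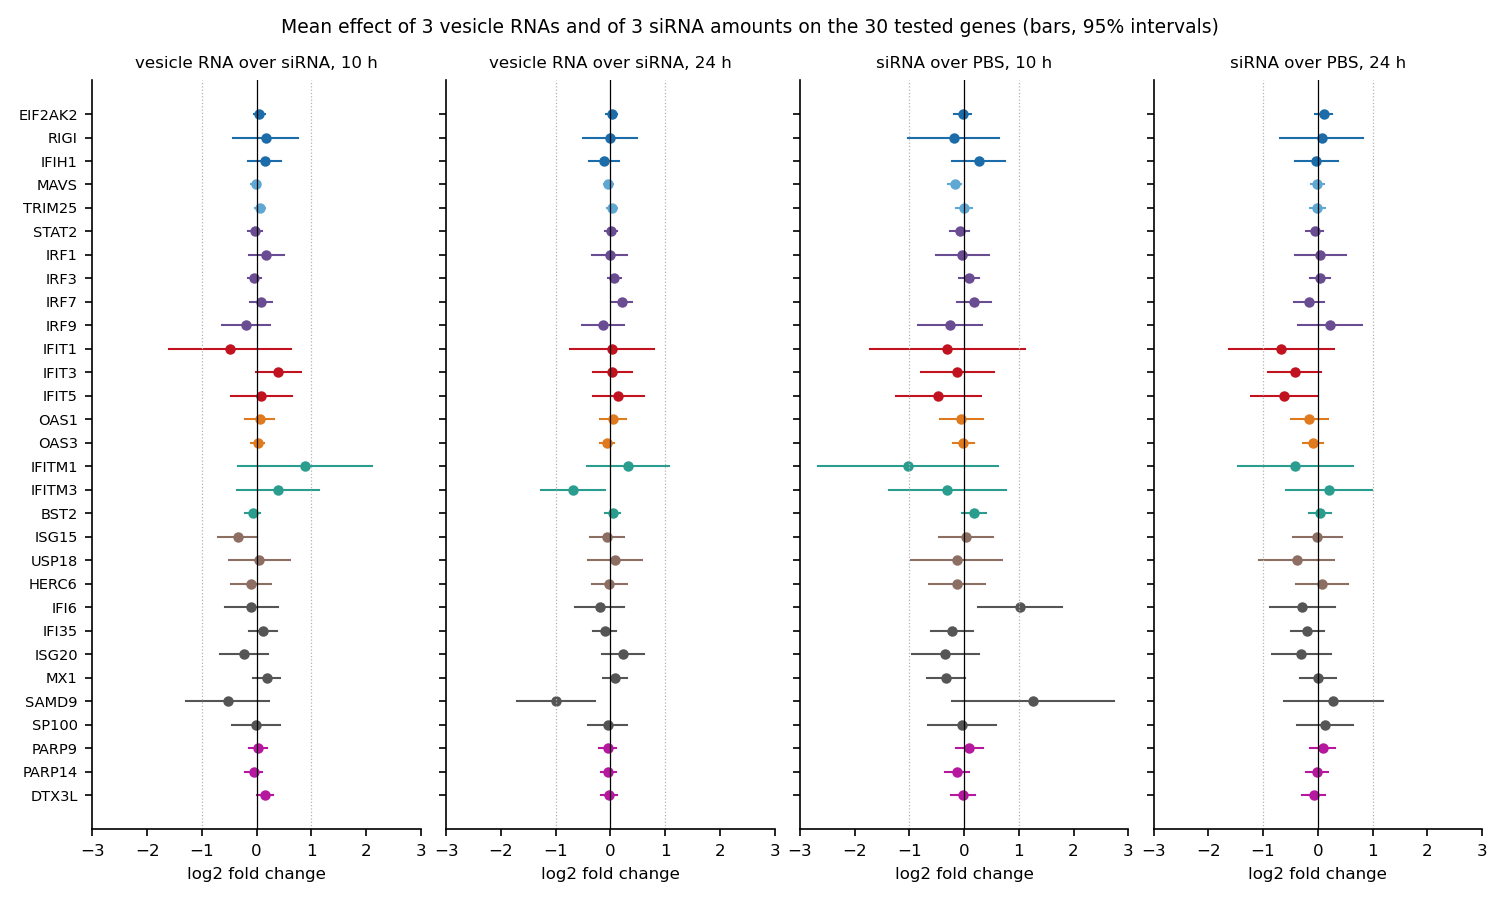
Log2 fold change of the 30 tested genes with its 95% interval (bar), coloured by role, in 4 panels: the mean of 3 vesicle RNAs over the mean of 3 siRNA amounts at 10 and 24 h, and the mean of 3 siRNA amounts over PBS at 10 and 24 h; dotted lines mark changes of 1 log2 unit. No gene passed the test in any panel, and the wide intervals are those of genes near 1 CPM such as *IFITM1*, *SAMD9* and *IFIT1*.

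The largest fold changes belonged to genes of about 1 CPM. *IFITM1*, whose protein blocks entry of enveloped virus, had 0, 0.447 and 1.43 CPM (lowest, median, highest) in the 8 vesicle RNA libraries at 10 h, against 0, 0.199 and 0.816 CPM in the 9 siRNA libraries. The ranges overlapped, and the log2 fold change was 0.89 ± 0.61 (SE, adjusted p = 0.819). At 24 h *IFITM1* had 0.507, 0.826 and 1.81 CPM in 8 vesicle RNA libraries, against 0.450, 0.785 and 1.36 CPM in 6 siRNA libraries, a log2 fold change of 0.32 ± 0.37 (adjusted p = 1). The level in PBS was 0.424 and 0.556 CPM at 10 h and 1.58 and 0.403 CPM at 24 h, and it overlapped that of the transfected cells at each time.

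*SAMD9* (chr7:93099513-93118023) was the gene with the lowest fold change at both times. At 10 h it had 0, 0.530 and 1.14 CPM in vesicle RNA libraries (26 counts in 8 libraries), against 0.473, 0.985 and 2.40 CPM in siRNA libraries (44 counts in 9). At 24 h it had 0.207, 0.690 and 1.39 CPM (33 counts in 8 libraries), against 0.595, 1.53 and 2.14 CPM (51 counts in 6). The medians lay lower with vesicle RNA at both times and the ranges overlapped at both. At 10 h the highest siRNA value, 2.40 CPM, rests on a few counts of replicate 3 of ANC5_10h, a library of 805396 counts. The log2 fold changes were -0.52 ± 0.38 (adjusted p = 0.838) and -0.99 ± 0.36 (unadjusted p = 0.00654, adjusted p = 1), and the second had a 95% interval of -1.70 to -0.29.

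*IFITM3*, a further block to virus entry, had 0.683, 1.18 and 2.05 CPM in vesicle RNA libraries at 24 h, against 1.17, 1.98 and 2.78 CPM in siRNA libraries, again with overlap (-0.68 ± 0.30, unadjusted p = 0.024, adjusted p = 1). At 10 h its fold change had the other sign (0.39 ± 0.38, adjusted p = 0.889). *IFIT1* (chr10:89392546-89406487) had 0, 0.632 and 0.780 CPM at 10 h in vesicle RNA libraries, against 0, 0.605 and 0.901 CPM in siRNA libraries, a log2 fold change of -0.48 ± 0.56 (adjusted p = 0.919). In single pairs, *IFIT1* had 1.07, 1.94 and 1.71 CPM in LcRNA_24h, against 0.605 and 0.991 CPM in ANC100_24h, without overlap, and 0.552, 0.560 and 1.24 CPM in PmRNA_24h, against 2.14 and 0.763 CPM in ANC2_24h, with overlap. The fold changes of these pairs differ in sign and neither passed the test.

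The sensors did not pass the test either. *RIGI* had 0.652, 1.49 and 2.27 CPM in vesicle RNA libraries at 10 h, against 0.9746, 1.21 and 1.80 CPM in siRNA libraries, and 0.967, 1.78 and 3.88 CPM against 0.971, 1.55 and 2.47 CPM at 24 h. *IFIH1* had 4.70, 6.44 and 7.99 CPM in vesicle RNA libraries at 10 h, against 4.51, 5.50 and 7.72 CPM in siRNA libraries. *EIF2AK2* had 109, 115 and 132 CPM in vesicle RNA libraries at 10 h, against 104.1, 114 and 140 CPM in siRNA libraries. The ranges of each overlapped almost entirely, with log2 fold changes at 10 h of 0.16 ± 0.30 for *RIGI*, 0.14 ± 0.15 for *IFIH1* and 0.05 ± 0.05 for *EIF2AK2*, and at 24 h of -0.0035 ± 0.25, -0.12 ± 0.14 and 0.02 ± 0.05 (adjusted p of 0.899 to 1). For *EIF2AK2* the 95% interval at 10 h was -0.06 to 0.15.

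The same held for effectors that interferon typically raises. *ISG15* had 1.57, 4.11 and 5.22 CPM in vesicle RNA libraries at 10 h, against 2.40, 4.69 and 6.46 CPM in siRNA libraries (log2 fold change -0.35 ± 0.18, adjusted p = 0.705), with 3.34, 5.49 and 6.84 CPM against 3.33, 5.78 and 6.56 CPM at 24 h. *MX1*, a GTPase that traps viral nucleocapsids, had 8.62, 12.4 and 19.7 CPM in vesicle RNA libraries at 10 h, against 7.18, 10.8 and 18.1 CPM in siRNA libraries (0.18 ± 0.12, adjusted p = 0.815). *OAS1*, which makes the 2′-5′ oligoadenylates that activate RNase L, had 4.70, 8.94 and 12.2 CPM against 6.65, 8.17 and 15.6 CPM (0.06 ± 0.13, adjusted p = 0.97). All these ranges overlapped. At 10 h the lowest values of *ISG15* and *OAS1* with vesicle RNA rest on a few counts of the shallowest library, replicate 3 of PmRNA_10h (632659 counts). The lowest *ISG15* value with siRNA likewise rests on a few counts of replicate 3 of ANC5_10h (805396 counts).

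The counts of the genes that were too low to test are given without a test. *IFIT2* had 16 counts in 8 vesicle RNA libraries at 10 h, against 23 counts in 9 siRNA libraries, and 33 against 34 counts in 8 and 6 libraries at 24 h. *IFI27* had 32 against 35 counts at 10 h and 26 against 24 at 24 h, *DHX58* 7 against 14 and 10 against 11, *OASL* 4 against 2 and 2 against 6, and *OAS2* 1 against 0 and 2 against 2. *IFITM2* had 15 against 14 counts at 10 h, and 8 counts in 8 libraries (0.166 ± 0.207 CPM) against 18 in 6 (0.492 ± 0.185 CPM, SD) at 24 h. *DDX60* had 1 against 3 and 4 against 4 counts, and 11 counts in the 2 libraries of LcRNA_48h against 1 in the 2 of ANC100_48h, at 0.232 and 1.47 CPM against 0 and 0.180 CPM. *IFI44* and *IFI44L* had 0 counts in every one of these libraries.

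Across single pairs, the genes under an unadjusted p of 0.05 in edgeR were *STAT2*, *IRF7*, *PARP9*, *ISG20*, *IRF3*, *IFI35*, *MX1* and *PARP14*, and they were singled out after their values had been seen. *STAT2* (chr12:56341597-56360203) had 38.97 and 39.2 CPM in PmRNA_10h, against 48.5 and 46.7 CPM in ANC2_10h, and 53.9, 52.8 and 46.2 CPM in PmRNA_24h, against 59.6 and 59.9 CPM in ANC2_24h. The groups did not overlap at either time, with log2 fold changes of -0.32 ± 0.13 (adjusted p = 1) and -0.21 ± 0.09 (adjusted p = 0.761). In LcRNA_10h *STAT2* had 50.9, 53.3, 52.8 and 58.2 CPM, against 49.0, 53.0, 44.3 and 47.8 CPM in ANC100_10h, which overlapped, with a fold change of the other sign (0.15 ± 0.07, adjusted p = 1). *PARP9* likewise had a log2 fold change of 0.34 ± 0.15 in LcRNA_24h over ANC100_24h and of -0.31 ± 0.13 in PmRNA_24h over ANC2_24h (adjusted p = 1 and 0.724).

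The siRNA was compared with PBS to see whether the transfection itself moved the list. No gene of the list passed the test for ANC100, ANC5 or ANC2 over PBS at 10 or 24 h or for their means, where 0% of all genes passed, nor for ANC100_48h over PBS_48h, where 0.282% passed. At an unadjusted p under 0.05 there were 3, 3 and 3 of the 30 genes for ANC100, ANC5 and ANC2 at 10 h. There were 0, 0 and 1 at 24 h, 1 at 48 h, and 2 and 0 in the means at 10 and 24 h. Of all genes, 6.39%, 7.04% and 4.92% lay under this limit at 10 h and 4.3%, 5.5% and 5.66% at 24 h. The share was 11% at 48 h, and 7.34% and 6.41% in the means. DESeq2 called 0 of the 30 genes except *STAT2* at 48 h. It gave an adjusted p to only 1 of the 30 genes in ANC100_10h and ANC5_10h over PBS_10h and in the means at 10 h, and to 9 at 48 h, so the others could not be called there. Without replicate 2 of ANC100_48h edgeR called 2 at 48 h. The median log2 fold change of the 30 genes in the means was -0.07 at 10 h and -0.0099 at 24 h, beside -0.0063 and 0.0042 for all genes, and the 95% interval lay within 1 of 0 for 23 and 25 of the 30.

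At 10 h *SAMD9* had a log2 fold change of 1.26 ± 0.74 in the mean of siRNA over PBS (adjusted p = 0.756), with 0.473 to 2.40 CPM in siRNA libraries, against 0.849 and 0.139 CPM in PBS, a total of 3 counts in PBS. *IFI6*, whose protein restricts flaviviruses, had 0.997, 1.95 and 3.79 CPM in siRNA libraries, against 0 and 1.95 CPM in PBS_10h (1.02 ± 0.39, unadjusted p = 0.00964, adjusted p = 0.523). The PBS library with 0 counts of *IFI6* was replicate 2, with a total of 2476570 counts. *IFITM1* lay at -1.02 ± 0.83 (adjusted p = 0.854), with 0, 0.199 and 0.816 CPM in siRNA libraries, against 0.424 and 0.556 CPM in PBS. The ranges of siRNA and PBS overlapped for each.

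At 24 h the 3 largest fold changes of siRNA over PBS were those of IFIT genes, all below 0. *IFIT1* had 0.463, 0.877 and 2.14 CPM in siRNA libraries, against 1.42 and 1.61 CPM in PBS (-0.66 ± 0.48, adjusted p = 0.89). *IFIT5* had 1.19, 2.20 and 3.03 CPM, against 3.78 and 2.62 CPM (-0.61 ± 0.31, adjusted p = 0.782), and *IFIT3* 2.14, 3.32 and 4.69 CPM, against 4.57 and 4.43 CPM (-0.42 ± 0.25, adjusted p = 0.82). The medians lay under PBS for all 3 genes and the ranges overlapped. With all 105 libraries and the replicate block the fold change turned sign for *IFIT1* (0.16) and *IFIT5* (0.000112). *MAVS* lay at -0.17 ± 0.06 at 10 h (unadjusted p = 0.006, adjusted p = 0.479), with 210 to 233 CPM in siRNA libraries, against 255 and 245 CPM in PBS, without overlap, and at -0.0064 ± 0.06 at 24 h. It was singled out after its values had been seen.

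Neither the amount of siRNA nor transfected LPS moved a gene of the list past the test. In ANC100 over ANC2, 0 of 30 genes passed at 10 and 24 h (0% of all genes). Under an unadjusted p of 0.05 there were 2 and 1, beside 3.15% and 2.83% of all genes. In LPStrans over ANC2, 0 of 30 passed at both times (0% of all genes). Under the unadjusted limit there were 1 and 2, beside 2.75% and 2.99% of all genes. DESeq2 called 0 in these 4 comparisons.

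Vesicles were compared with PBS, and the outer membrane vesicles also with LPS in the medium. Of these comparisons 2 held a gene of the list past the test. For LcMV over PBS, 0 of 30 genes passed at 10 h, with 3 under an unadjusted p of 0.05, and 0 at 24 h, with 0, whereas 0.0373% and 0.00533% of all genes passed. For EfMV over PBS, 0 passed at both times (0% of all genes), with 2 and 1 under the unadjusted limit, and for PmOMV over PBS 0 passed at 10 h and at 24 h, with 5 and 0, whereas 1.06% and 0.112% of all genes passed. LPSinc over PBS had 0 (0% of all genes), with 1 and 0. Of all genes, 7.46% and 3.95% lay under the unadjusted limit for LcMV at 10 and 24 h, and 3.31% and 3.36% for EfMV. The shares were 11.5% and 4.72% for PmOMV and 3.86% and 2.4% for LPSinc. DESeq2 called 0 genes of the list in each of these comparisons. It gave an adjusted p for 15 of the 30 genes in LcMV_10h and 16 in PmOMV_10h over PBS_10h. The 2 genes were *STAT2* in LcMV_48h over PBS_48h and *IFI35* in PmOMV_10h over LPSinc_10h.

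*STAT2* had 70.6 and 66.03 CPM in LcMV_48h, against 90.2 and 93.8 CPM in PBS_48h. The groups did not overlap, and *STAT2* fell by 0.37 ± 0.10 on the log2 scale (adjusted p = 0.022, edgeR), 1 of 30 genes where 2.75% of all genes passed. The transfected groups at 48 h were also under PBS, with 82.9 and 59.8 CPM in LcRNA_48h and 76.8 and 60.4 CPM in ANC100_48h. PBS_48h shares only replicate 2 with these groups, and its other library is replicate 5, alone with that number at 48 h. Within replicate 2 the level was 70.6 CPM with LcMV, against 90.2 CPM with PBS. Leaving out any 1 of these 4 libraries ended the call of *STAT2* (log2 fold change -0.40 to -0.37, adjusted p of 0.0907 to 0.161), and without replicate 5 of PBS_48h *HERC6* was the 1 gene of the list that passed.

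*IFI35* (chr17:43006740-43014456), an interferon-induced leucine zipper protein, had 8.33, 6.38 and 7.57 CPM in PmOMV_10h, against 9.35 and 13.3 CPM in LPSinc_10h. It fell by 0.62 ± 0.19 on the log2 scale (adjusted p = 0.0489), 1 of 30 genes where 3.18% of all genes passed. In PBS_10h *IFI35* had 8.06 and 9.74 CPM, 1 library within the range of each group, and the single library of 13.3 CPM was the highest of all libraries at 10 h. Of the 5 libraries, leaving out any 1 ended the call (log2 fold change -0.71 to -0.31, adjusted p of 0.0768 to 0.683) except replicate 2 of LPSinc_10h (-0.90, adjusted p = 0.0237). Without replicate 3 of LPSinc_10h, the library of 13.3 CPM, it was -0.31. At 24 h, 0 of 30 genes passed in PmOMV over LPSinc (0.154% of all genes), and 0 by DESeq2. Under an unadjusted p of 0.05 there were 2, beside 4.56% of all genes.

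**Figure D3:**
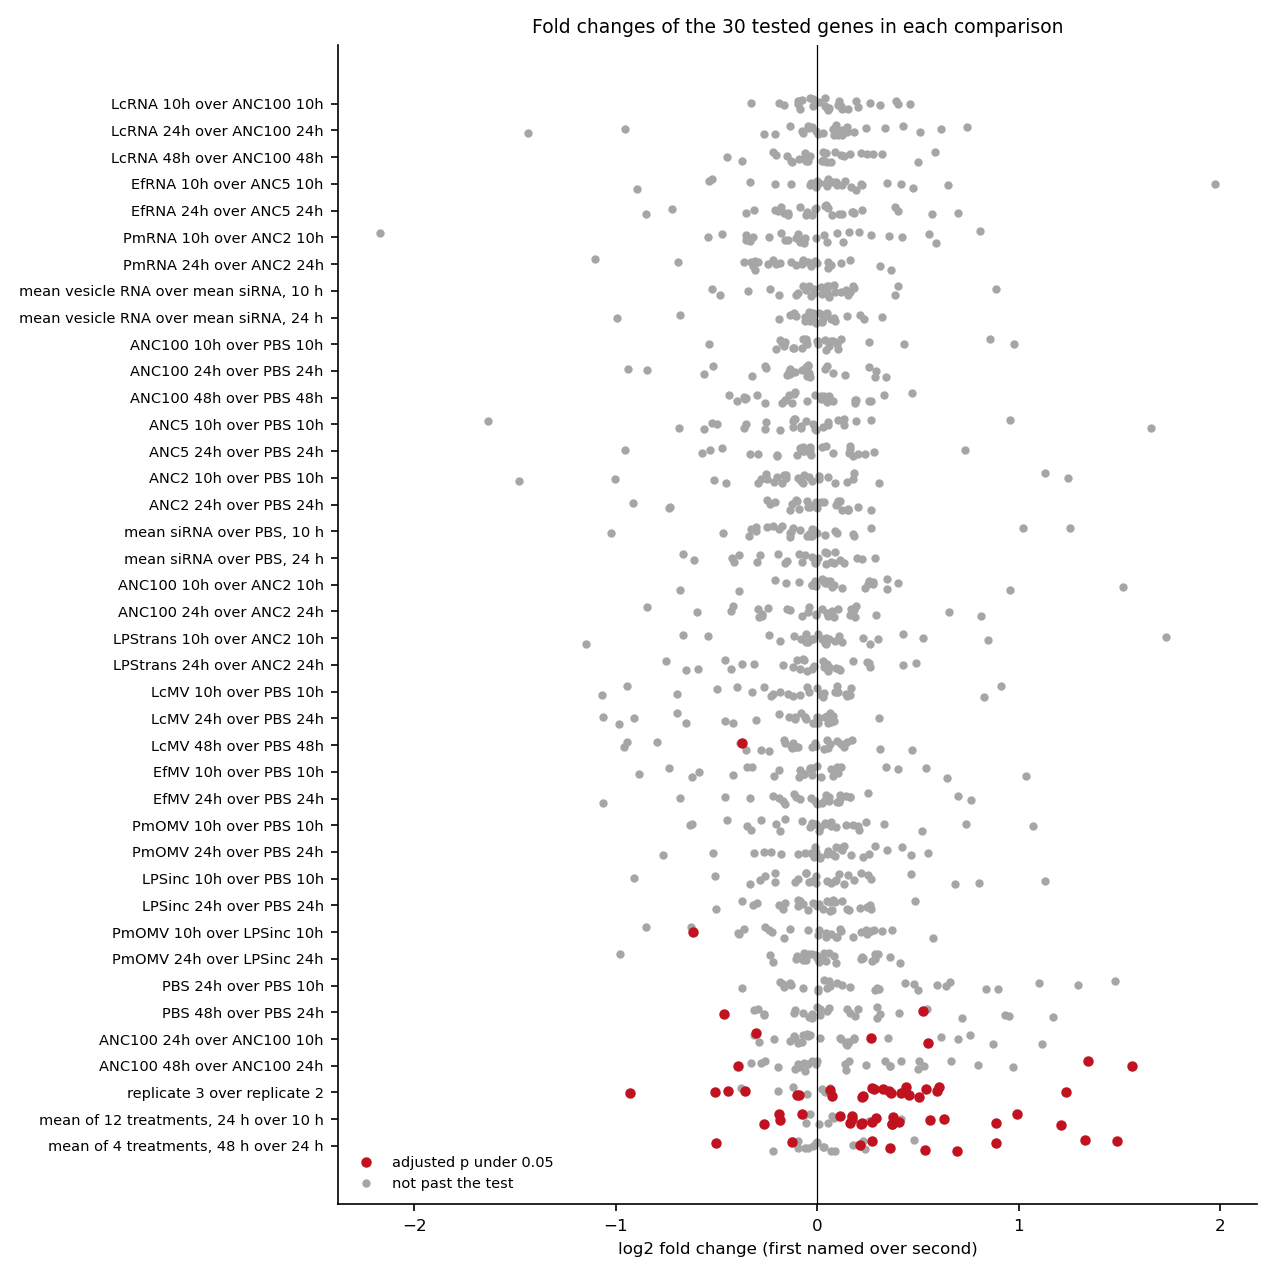
Log2 fold change of the 30 tested genes (points, 1 per gene) in each comparison, 1 row per comparison, first named over second, with genes at an adjusted p under 0.05 in red. Red points appear in 2 of the treatment comparisons, *STAT2* in LcMV 48 h over PBS 48 h (-0.37) and *IFI35* in PmOMV 10 h over LPSinc 10 h (-0.62), and in the comparisons of time and of replicate number in the lower rows.

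Some other genes of the same pathway were higher with the outer membrane vesicles. Of 52 pathway genes that are not in the list, chosen by function, 31 were tested. For PmOMV over PBS, 5 of 31 were higher and 0 lower at 10 h, where 1.06% of all genes passed in either direction, and 1 was higher and 0 lower at 24 h, where 0.112% passed. In the vesicle RNA and siRNA comparisons 0 of 31 passed. *CXCL10*, a chemokine that attracts T cells, had 2.52, 4.09 and 3.79 CPM in PmOMV_10h (16, 34 and 21 counts), against 0.424 and 0.139 CPM in PBS_10h (1 and 1 count), a log2 fold change of 3.68 ± 0.76 (adjusted p = 0.00206). *IKBKE*, a kinase related to TBK1, had 26.1, 36.6 and 29.4 CPM against 13.2 and 15.4 CPM at 10 h (1.07 ± 0.16, adjusted p = 4.23e-06), and 32.1 and 27.9 CPM against 12.1 and 13.3 CPM at 24 h (1.24 ± 0.18, adjusted p = 3.33e-06). Neither gene overlapped between the groups. The others at 10 h were *TLR7*, an endosomal receptor of single-stranded RNA (2.01 ± 0.50), the interferon-gamma receptor *IFNGR1* (0.50 ± 0.09) and *JAK1* (0.39 ± 0.10). *TLR7* had 1.73, 6.74 and 8.47 CPM in PmOMV_10h, against 0.424 and 1.81 CPM in PBS_10h, and 1 library of PmOMV_10h lay within the range of PBS. With all 105 libraries, 0 of 18775 genes passed for PmOMV over PBS at 24 h, with or without the replicate block. At 10 h, 6 of all genes passed with the block and 3 without it.

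The effect of vesicles over PBS was also tested against that of their RNA over siRNA. For *L. casei* 0 of 30 genes differed at 10, 24 and 48 h (0.0213%, 0% and 0.0959% of all genes), with 1, 0 and 1 under an unadjusted p of 0.05. For *E. faecalis* 0 differed at 10 and 24 h (0% and 0.00533%), with 0 and 0, and for *P. mirabilis* 0 differed (0.165% and 0.0373%), with 3 and 2. Of all genes, 7.85%, 3.23% and 9.43% lay under the unadjusted limit for *L. casei*. The shares were 4.14% and 3.32% for *E. faecalis* and 7.25% and 5.05% for *P. mirabilis*. DESeq2 called 0 in all 7, with an adjusted p for 10 of the 30 genes for *L. casei* at 10 and 48 h and for 16 for *P. mirabilis* at 10 h.

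Time in culture was compared within PBS and ANC100, and the share of all genes that passed is given beside each count. For PBS at 24 over 10 h, 0 of 30 genes passed (7.15% of all genes), and 0 by DESeq2, which gave an adjusted p to 20 of them. Under an unadjusted p of 0.05 there were 5 of the 30, beside 19.7% of all genes. For PBS at 48 over 24 h *STAT2* rose (0.53 ± 0.10) and *BST2* fell (-0.46 ± 0.14), 2 of 30 where 17.8% of all genes passed. For ANC100 at 24 over 10 h *IFI35* (0.55 ± 0.18) and *STAT2* (0.27 ± 0.09) rose and *BST2* fell (-0.30 ± 0.11), 3 of 30 beside 14.1%. For ANC100 at 48 over 24 h *IFIT1* (1.56 ± 0.55) and *IFITM1* (1.34 ± 0.48) rose and *BST2* fell (-0.39 ± 0.13), 3 of 30 beside 15.3%. Each of these contrasts rests on 2 to 4 libraries per time. With 1 library left out, ANC100 at 24 over 10 h gave 0 genes without replicate 2 of ANC100_10h and 1 without replicate 4 or 5 of ANC100_10h or replicate 2 of ANC100_24h. ANC100 at 48 over 24 h gave 0 without replicate 2 of ANC100_24h, 1 without replicate 2 of ANC100_48h and 2 without replicate 3 of ANC100_24h. PBS at 48 over 24 h gave 1 without replicate 3 of PBS_24h or replicate 2 of PBS_48h.

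With all treatments averaged, a comparison chosen after the data had been seen, 21 of 30 genes differed at 24 over 10 h in the mean of the 12 treatments sampled at both times. Of these 17 were higher and 4 lower, while 54.9% of all genes passed, 27.7% higher and 27.2% lower, and the median log2 fold change was 0.20 for the 30 genes and 0.0044 for all genes. *IFIT1* rose most (1.21 ± 0.22, adjusted p = 2.41e-06), followed by *IFITM1* (0.99 ± 0.24, adjusted p = 0.000255) and *IFITM3* (0.89 ± 0.17, adjusted p = 8.97e-06). *OAS3* (-0.27 ± 0.03, adjusted p = 5.33e-11), *IRF1* (-0.19 ± 0.08, adjusted p = 0.0446) and *IRF3* (-0.18 ± 0.03, adjusted p = 3.58e-07) fell most, and *EIF2AK2* was the remaining gene that fell. In the mean of the 4 treatments sampled at both 48 and 24 h, 10 of 30 genes differed, 8 higher and 2 lower. Of all genes 43.5% passed, 20.3% higher and 23.2% lower. *SAMD9* (1.49 ± 0.29, adjusted p = 1.4e-05), *IFITM1* (1.33 ± 0.27, adjusted p = 3.13e-05) and *IFIT1* (0.89 ± 0.27, adjusted p = 0.00504) rose most, and *BST2* (-0.50 ± 0.07, adjusted p = 4.83e-10) and *IRF3* (-0.13 ± 0.05, adjusted p = 0.0474) fell. *IRF1*, lower at 24 h, was among those that rose (0.36 ± 0.14, adjusted p = 0.0313).

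The levels behind this were low for IFIT and IFITM genes and high for *STAT2*. *IFIT1* had 0, 0.587 and 1.36 CPM (lowest, median, highest) in 32 libraries at 10 h, 0.463, 1.15 and 3.58 CPM in 26 libraries at 24 h and 0.588, 2.26 and 3.48 CPM in 8 libraries at 48 h. *IFITM1* had medians of 0.422, 0.785 and 2.50 CPM at the 3 times and *IFITM3* of 0.846, 1.53 and 2.27 CPM. The medians of these 3 genes were higher at each later time, with overlap between neighbouring times. *STAT2* had 38.97, 47.8 and 58.2 CPM at 10 h, 46.2, 59.9 and 70.2 CPM at 24 h and 59.8, 73.7 and 93.8 CPM at 48 h, so that every library at 48 h was above every library at 10 h. *BST2* had 36.7, 49.9 and 61.4 CPM at 10 h, 34.0, 44.3 and 56.8 CPM at 24 h and 23.5, 30.9 and 40.4 CPM at 48 h. *OAS3*, which makes long 2′-5′ oligoadenylates, had 49.3, 59.6 and 78.6 CPM at 10 h and 35.8, 48.6 and 56.9 CPM at 24 h, and its neighbour on chromosome 12 *OAS1* moved the other way (0.29 ± 0.06, adjusted p = 6.91e-05).

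**Figure D4:**
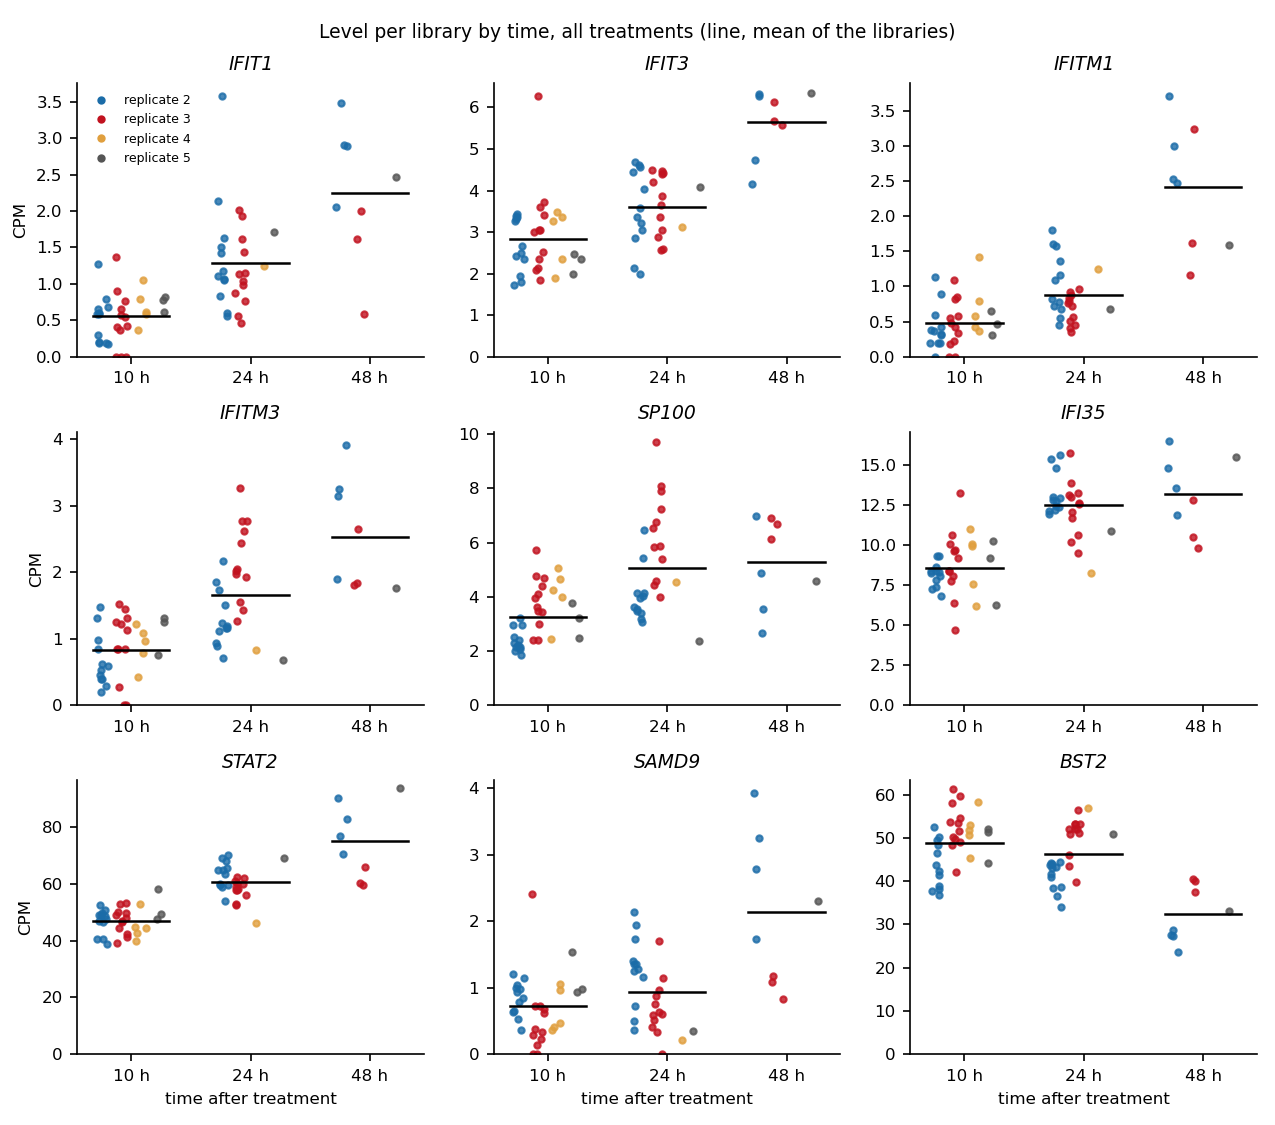
CPM of *IFIT1*, *IFIT3*, *IFITM1*, *IFITM3*, *SP100*, *IFI35*, *STAT2*, *SAMD9* and *BST2* in each of 66 libraries (points, coloured by replicate number) at 10, 24 and 48 h, all treatments together, with the mean of the libraries as a line. Mean *STAT2* is 47.04, 60.5 and 75.1 CPM at the 3 times and mean *BST2* 48.9, 46.3 and 32.3 CPM, and the points of replicates 3 and 2 overlap for *BST2* and *SAMD9* at 10 and 24 h.

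Within 1 replicate number most treatments gave the same direction, although libraries of the same number deviate together and these treatments are not independent. In replicate 2 *STAT2* was higher at 24 than at 10 h in 12 of 12 treatments, without overlap (63.2 ± 4.89 CPM at 24 h and 46.8 ± 4.39 CPM at 10 h, SD, n = 12), and in replicate 3 in 11 of 12 (58.4 ± 3.22 and 46.99 ± 4.48 CPM). *IFIT1* was higher at 24 h in 12 and 10 of 12 treatments in replicates 2 and 3, *SP100*, a protein of PML nuclear bodies, in 12 and 12, *IFI35* in 12 and 11, *IFITM3* in 9 and 12 and *IFITM1* in 11 and 8. *OAS3* was lower at 24 h in 12 and 10, and *IRF3* in 12 and 9. Of the 21 genes that passed, 20 had the same sign in both replicates, and the exception was *ISG15*, at a log2 ratio of -0.01 in replicate 2 and 0.57 in replicate 3. Replicates 2 and 3 supplied most of the libraries from which these genes were called, so this agreement is not a separate test. The share with the same sign among all genes that passed was not computed. *IFIT2*, too low for the test, had 0.539 ± 0.331 CPM at 10 h, 0.958 ± 0.506 CPM at 24 h and 1.43 ± 0.386 CPM at 48 h (SD, n = 32, 26 and 8).

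Other values moved with time as well. The summed epithelial markers had medians of 7800, 6780 and 4630 CPM at 10, 24 and 48 h, with 7220 to 8610 CPM at 10 h and 3870 to 5790 CPM at 48 h. Most of this sum was *KRT8* (1076 to 4420 CPM over the 66 libraries) and *KRT18* (352 to 1909 CPM). The ranges were 681 to 1158 CPM for *CDH1*, 395 to 613 for *EPCAM*, 429 to 708 for *CDH17* and 433 to 557 for *VIL1*. *KRT20* had 0 to 10.4 CPM. The sum therefore mainly follows the 2 keratins. The 4 fibroblast markers had medians of 48.7, 62.0 and 71.3 CPM. The leukocyte markers had 10.7, 9.28 and 10.7 CPM and the endothelial ones 5.59, 5.47 and 9.66 CPM. The lanes were unevenly spread too: in replicate 3, 9 of 12 libraries at 24 h came from lane 1 of flow cell 1, whereas 7 of 12 at 10 h came from lane 1 of flow cell 2. With lane as a term, 19 of 30 genes differed at 24 over 10 h, all among the 21, beside 10162 of all 18775 genes. At 48 over 24 h 8 differed with this term, 5 higher and 3 lower, beside 6844 of all genes, and 5 of the 8 were among the 10. With all 105 libraries and the replicate block, 14 of the 21 and 2 of the 10 remained. Over all genes the calls also fell under this setting, from 10304 to 7257 at 24 over 10 h and from 8162 to 1657 at 48 over 24 h. The part of the markers in the result was not tested, and in total RNA of a culture fewer expressing cells and less RNA per cell cannot be told apart. Of the other 31 pathway genes, 10 were higher and 7 lower at 24 over 10 h, and 4 higher and 6 lower at 48 over 24 h, beside 54.9% and 43.5% of all genes in either direction.

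The list also differed between the numbered replicates. In replicate 3 over replicate 2, 23 of 30 genes passed, 17 higher and 6 lower, beside 62.2% of all genes, 31.1% higher and 31.1% lower. *IFI6* had 3.24 ± 0.94 CPM in replicate 3 and 1.40 ± 0.55 CPM in replicate 2 (SD, n = 27 groups), was higher in 26 of 27 groups, and differed by 1.23 ± 0.11 on the log2 scale (adjusted p = 2.77e-16). *PARP14*, an ADP-ribosyltransferase, had 100.5 ± 9.10 CPM in replicate 3 and 65.97 ± 9.37 CPM in replicate 2, and was higher in 27 of 27 groups (0.61 ± 0.04, adjusted p = 3.19e-20). *SP100* was higher in 22 of 27 (0.59 ± 0.09, adjusted p = 5.92e-08). *SAMD9* was lower in 23 of 27 (-0.93 ± 0.18, adjusted p = 8.3e-06), *IFIT5* in 22 of 27 (-0.51 ± 0.12, adjusted p = 0.000181) and *IFITM1* in 16 of 27 (-0.44 ± 0.20, adjusted p = 0.0434). *IFI27*, too low for the test, was higher in 22 of 27. Of the 30 genes, 14 differed both with replicate number and at 24 over 10 h, 9 with replicate number only, 7 with time only and 0 with neither. Of all genes, 62.2% passed for replicate number and 54.9% for time. The joint counts over all genes were not computed, so those of the list are not read as particular to it. The fibroblast markers had medians of 72.0 CPM in replicate 3 and 46 CPM in replicate 2 and the epithelial ones 7130 and 6580 CPM, and their part in the result was not tested. What the replicate numbers stand for is not stated in the labels. Libraries of the same number deviate together from their group means, so the 27 groups are not independent. The p-values measure only the spread between libraries.

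**Figure D5:**
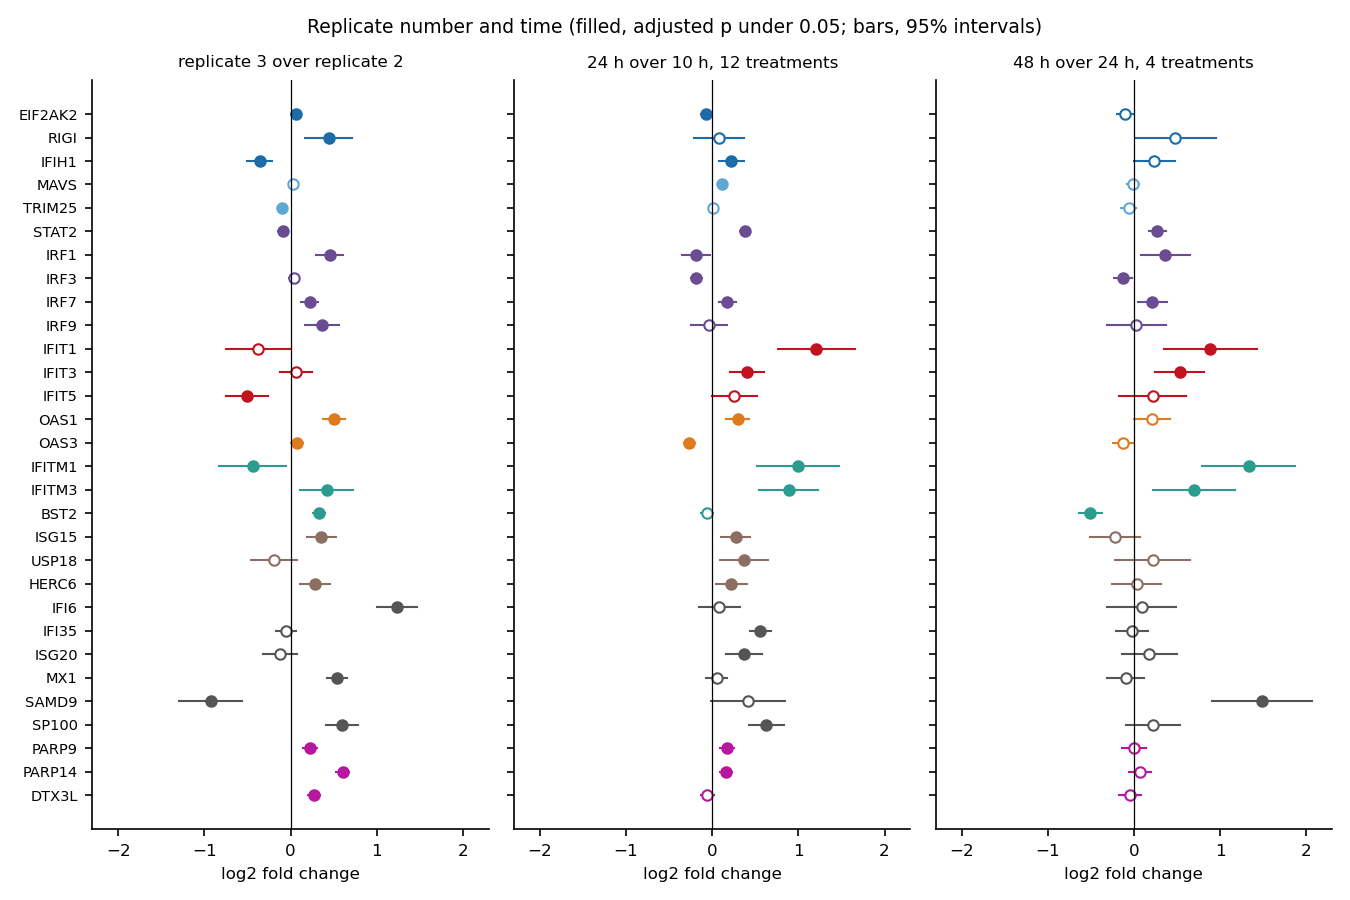
Log2 fold change of the 30 tested genes with its 95% interval (bar), coloured by role, for replicate 3 over replicate 2, for 24 over 10 h in the mean of 12 treatments and for 48 over 24 h in the mean of 4 treatments; filled points passed the test. In the 3 panels 23, 21 and 10 of 30 genes are filled, and *SAMD9* lies at -0.93 in the first and at 1.49 in the last.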

How the data were processed

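Libraries were made from total RNA of Caco-2 cells after removal of ribosomal RNA, with paired reads. Per the labels, the authors used STAR for alignment (GRCh38) and featureCounts for the counts per gene. The study's methods add a deduplication step and counting of primary alignments with a minimum mapping quality, which can lower the counts of paralogs. The deposited values are raw counts, 1 table of 63241 genes by 105 libraries, and the labels match each column to a library. Symbols came from a table of gene IDs, in which 62666 IDs were found.

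Genes were kept by filterByExpr (minimum count 10) of edgeR 4.0.16 (R 4.3.3), which left 18775 of 46395 genes with a count. Libraries of lanes 2 to 4 of flow cell 1 were set aside. The other 66 were scaled by TMM and fitted together, with a coefficient per group and the replicate number as a block (biological coefficient of variation 0.06), and each contrast was tested with the two-sided quasi-likelihood F test. A gene passed at a Benjamini-Hochberg adjusted p under 0.05 over all genes tested. Unless DESeq2 (1.42.0, the tool the study used) is named, every p is from this edgeR fit. Errors of fold changes were taken as |log2 fold change| divided by √F. CPM are counts per 1000000 of the scaled library size.

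Replicate numbers were taken as pairing the libraries because same-numbered libraries deviated together from their group means: every pair had a correlation over 0.1 in 30 of 30 contrasts (0.247 to 0.691, median 0.491). The scripts were tested on simulated data. Members, lists, tests and the use of the block were chosen with earlier results of these data known. Values per library are given for genes past the test in a treatment comparison and for the 3 largest fold changes in the means of vesicle RNA over siRNA and of siRNA over PBS, and in comparisons of time and replicate the 3 that rose and the 3 that fell most are named. Alternatives were all 105 libraries, no block, a block within each time, a lane term, replicates 2 and 3 only, DESeq2 scaling or test, no filter, no robust option, and leaving out each library.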

Additional observations from a re-analysis of the deposited data

Results flagged for a closer look

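In groups of 4 libraries, 3 of 60 tests of the highest or lowest value were past the critical value of Dixon's test, about the 1 in 20 that chance gives. *IRF7* had 19.4 CPM in replicate 4 of ANC100_10h, and 13.0 to 13.9 CPM in the other 3 libraries. *HERC6* had 4.19 CPM in replicate 2 of ANC100_10h, and 5.92 to 6.24 CPM in the others. *SP100* had 5.74 CPM in replicate 3 of LcRNA_10h, and 2.28 to 2.50 CPM in the others.

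Among the pathway genes outside the list, *IKBKE* passed the test for a difference of effects in the main reading. The effects were those of the outer membrane vesicles of *P. mirabilis* over PBS and of their RNA over siRNA. The difference of the log2 fold changes was 1.11 ± 0.26 at 10 h (adjusted p = 0.0425, edgeR) and 1.32 ± 0.25 at 24 h (adjusted p = 0.00207). At 10 h *IKBKE* had 26.1, 36.6 and 29.4 CPM in PmOMV_10h, against 13.2 and 15.4 CPM in PBS_10h, and 18.0 and 15.7 CPM in PmRNA_10h, against 17.5 and 18.4 CPM in ANC2_10h. At 24 h it had 32.1 and 27.9 CPM in PmOMV_24h, against 12.1 and 13.3 CPM in PBS_24h, and 16.0, 14.9 and 13.7 CPM in PmRNA_24h, against 16.3 and 15.7 CPM in ANC2_24h. The vesicle libraries lay above both PBS libraries at each time. With all 105 libraries, 0 of 18775 genes passed for the difference of effects at 24 h, with or without the replicate block. *IKBKE* was thus not called there. At 10 h, 3 of all genes passed with the block and 0 without it.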

How the results depend on the processing

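The count of 0 genes of the list in every comparison of vesicle RNA with siRNA, alone and in the means, was the same under each alternative run and with each library left out, though in 2 of them DESeq2 gave an adjusted p to only 4 of the 30 genes. Other counts were small and moved. *STAT2* in LcMV_48h over PBS_48h (1) lost its call with all libraries, with and without the replicate block, without the block, with the lane term, with replicates 2 and 3 only (0 genes each) and with the block within each time, where the 1 gene was *HERC6*. Over all 18775 genes, 517 passed there in the main fit and 0 with all libraries. There were 62 without the block, 196 with the lane term, 87 with replicates 2 and 3 and 324 with the block within each time. *IFI35* in PmOMV_10h over LPSinc_10h (1) gave 0 with all libraries, without the block, with the lane term, with replicates 2 and 3 only and with no filter. With the block within each time the count was 2. Over all genes 597 passed in the main fit, 6 and 5 with all libraries, with and without the block, and 37 without the block. There were 851 with the lane term, 344 with replicates 2 and 3 and 1503 with the block within each time. PmOMV_10h over PBS_10h gave 1 with the block within each time, where 682 of all genes passed, beside 199 in the main fit. ANC100_48h over PBS_48h gave 1 by DESeq2, where 136 of the 6763 genes with an adjusted p passed. For time, PBS at 24 over 10 h (0) gave 3 with the block within each time and 1 with DESeq2 scaling or without the robust option. Of all genes, 3045 passed with the block within each time and 1322 with DESeq2 scaling, beside 1342 in the main fit. PBS at 48 over 24 h (2) gave 0 with all libraries, 1 without the block and 6 with the block within each time. Under these settings 0, 1232 and 3486 of all genes passed, beside 3340 in the main fit. ANC100 at 24 over 10 h (3) gave 0 with no filter, with all libraries and without the block, 8 with the block within each time and 1 with replicates 2 and 3. Of all genes, 2648 passed in the main fit, 2245 of 46395 with no filter, 0 with all libraries and 740 without the block. There were 4368 with the block within each time and 1589 with replicates 2 and 3. ANC100 at 48 over 24 h (3) gave 1 with no filter, 0 with all libraries, by DESeq2 and without the block, and 1 with replicates 2 and 3. Of all genes, 2865 passed in the main fit, 2441 of 46395 with no filter and 0 with all libraries. There were 2466 by DESeq2, 624 without the block and 2538 with replicates 2 and 3. The mean of 4 treatments at 48 over 24 h (10) gave 2 with all libraries and the block, 1 with all libraries and no block, and 6 without the block. In the same order 1657, 476 and 5343 of all genes passed, beside 8162 in the main fit. The mean of 12 treatments at 24 over 10 h (21) gave 14 with all libraries, with and without the block, 15 with the block within each time, 17 without the block and 19 to 21 otherwise, and replicate 3 over replicate 2 (23) gave 18 with all libraries and the block and 20 to 23 otherwise. Of all genes, 10304 passed for the mean of 12 treatments in the main fit, and 7257, 6193, 9545 and 8179 under the settings named. For the replicates 11670 passed in the main fit and 10283 with all libraries and the block. With 1 library left out, counts ran over 0 to 3 for ANC100 at 24 over 10 h, 0 to 4 at 48 over 24 h, 0 to 2 for ANC100_48h over PBS_48h, 0 to 1 for LcMV_48h over PBS_48h and for PmOMV_10h over LPSinc_10h, and 1 to 3 for PBS at 48 over 24 h. Leaving out was not run for the replicate, difference and mean time contrasts. Fold changes turned sign for *IFITM1* in the mean of vesicle RNA over siRNA at 10 h with 1 library left out (-0.30 to 1.95, the lowest without replicate 2 of PmRNA_10h and the highest without replicate 5 of ANC5_10h), and in siRNA over PBS at 24 h with all libraries for *IFIT1* (0.16 with the replicate block, 0.14 without) and *IFIT5* (0.000112 and 0.00719). The causes were not tested. Low counts limit *IFIT1*, the IFITM genes and *SAMD9*, of about 1 CPM.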

Other observations

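Among the pathway genes outside the list, levels moved with time of culture in both directions, and the genes named here were singled out after their values had been seen. In the mean of 12 treatments at 24 over 10 h (edgeR), *CGAS*, the sensor of cytosolic DNA, fell by 0.38 ± 0.04 on the log2 scale (adjusted p = 1.12e-14) and the receptor *IFNGR1* fell by 0.38 ± 0.03 (adjusted p = 1.85e-19), while *EPSTI1*, an interferon-induced gene, rose (0.49 ± 0.05, adjusted p = 3.98e-13), as did *MX2*, whose protein restricts HIV (0.66 ± 0.14, adjusted p = 4.6e-05). In the mean of 4 treatments at 48 over 24 h, *CGAS* fell by 0.20 ± 0.07 (adjusted p = 0.0113), *EPSTI1* lay at -0.34 ± 0.09 (adjusted p = 0.000953), and *TRIM21*, a cytosolic antibody receptor, rose (0.52 ± 0.09, adjusted p = 9.09e-07). The marker values that move with time are those given for the list.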
